A study of Gossypium hirsutum with 2 samples.

Results

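The proteasome is the protease complex that degrades ubiquitin-tagged proteins, and transcripts annotated as its subunits were compared here between ovules of a fuzzless-lintless cotton line and fiber of the wild type. Its members were the assembled transcript sequences (unigenes) whose annotation text contains the word proteasome, which gave 182 of 136262 unigenes. Of these, 45 were annotated as subunits of the 20S core, 76 as subunits of the 26S regulatory particle, 18 as accessory proteins (activator, assembly, maturation and inhibitor-related), and 43 carried a text that names no subunit. The members were chosen by annotation text and not by any measured value.

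FL ovule was ovule of XZ142FLM, a Gossypium hirsutum line with the genotype li3li3n2n2 whose seeds are labelled hairless, with minimal fiber development. WT fiber came from Xuzhou142, a wild-type cultivar labelled as having normal fiber development. Both were collected 10 days post anthesis from plants grown in the same long-day greenhouse conditions, and each is 1 library of total RNA. Line, genotype and tissue differ together between the libraries, so their effects cannot be told apart, and there is no replicate to give an error between plants. Both libraries carry the species label Gossypium hirsutum, although the series title names a pair of species. RNA editing, the stated aim, was not analysed here.

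In eukaryotes the 20S core is a barrel of stacked rings, with alpha subunits in the outer rings and beta subunits in the inner ones. Some of the beta subunits carry the proteolytic sites, and the alpha rings gate the entry. The regulatory particle caps the barrel: its ATPase subunits (RPT) unfold substrates, and its non-ATPase subunits (RPN) bind ubiquitin chains, remove them and hold the lid and base together. In Arabidopsis most subunits are encoded by a pair of similar genes, and the subunit genes are induced together when proteasome activity is impaired.

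FL ovule had 53.4 M unique reads on unigenes and WT fiber had 45.6 M. Values below are RPKM, which is the read count divided by unigene length and by the library's read total. A unigene was called measured at 1 RPKM or more in at least 1 library. The log2 ratio is log2((RPKM in FL ovule + 1) / (RPKM in WT fiber + 1)), so a positive value means higher in FL ovule, and adding 1 understates the difference of low unigenes. Ratios given with an interval are RPKM in FL ovule divided by RPKM in WT fiber, with an exact (Clopper-Pearson) 95% interval from the read counts that covers counting error only. The background was 63258 measured unigenes with a median log2 ratio of 0.39, of which 15.3% passed 2-fold upward in FL ovule and 10.5% downward. Of these 63258 unigenes, 42227 had a higher value in FL ovule and 21031 (33.2%) a lower one. Since each group is a single library, the groups cannot be tested, and counts past 2-fold describe these libraries. In bulk tissue, fewer cells of a type and less RNA per cell cannot be told apart.

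Markers of both tissues were present in both libraries, at different levels. Alpha expansins summed to 117 RPKM in FL ovule, against 7102 RPKM in WT fiber, and 3-ketoacyl-CoA synthases to 252 and 3404 RPKM in the same order. Of the expansin sum in WT fiber, 6967 RPKM came from 1 unigene (Unigene0055966). Among the 11 measured alpha expansins, 4 passed 2-fold upward in FL ovule and 3 downward. Among the 34 measured 3-ketoacyl-CoA synthases, 3 passed 2-fold upward and 19 downward. Histones H3 and H4, abundant in dividing cells, summed to 2416 RPKM in FL ovule, against 521 RPKM in WT fiber, and 28 of their 36 measured unigenes passed 2-fold upward in FL ovule. Seed storage proteins (40.2 RPKM in FL ovule, 14.5 in WT fiber) and light-harvesting proteins (116 and 38.1 RPKM) were also higher in FL ovule. Late embryogenesis abundant proteins of seeds went the other way, with 414 RPKM in FL ovule and 773 RPKM in WT fiber, and cyclins summed to 517 RPKM in FL ovule and 706 RPKM in WT fiber although 36 of 108 passed 2-fold upward and 17 downward. No marker list was at 0 in either library. The part of these tissue differences in the values below was not tested.

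Proteasome transcripts as a whole were slightly less abundant in FL ovule. The 182 unigenes held 0.272% of the reads in FL ovule and 0.379% in WT fiber. Of the members, 127 were measured. Their median log2 ratio was -0.26, against 0.39 for all measured unigenes. At least 2-fold differences were few: 4 members were higher in FL ovule and 15 were lower. In the downward direction that is close to the background (11.8% of the measured members against 10.5% of all measured unigenes), and in the upward direction it is below it (3.15% against 15.3%). The members were abundant, with a median over unigenes of 8.71 RPKM for the mean of both libraries, against 1.77 RPKM for all measured unigenes. Levels of the 127 members on the log2(RPKM + 1) scale correlated between FL ovule and WT fiber with a Pearson r of 0.94 and a Spearman rho of 0.93. This describes unigenes of the same pair of libraries, which are not independent replicates.

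**Figure D1:**
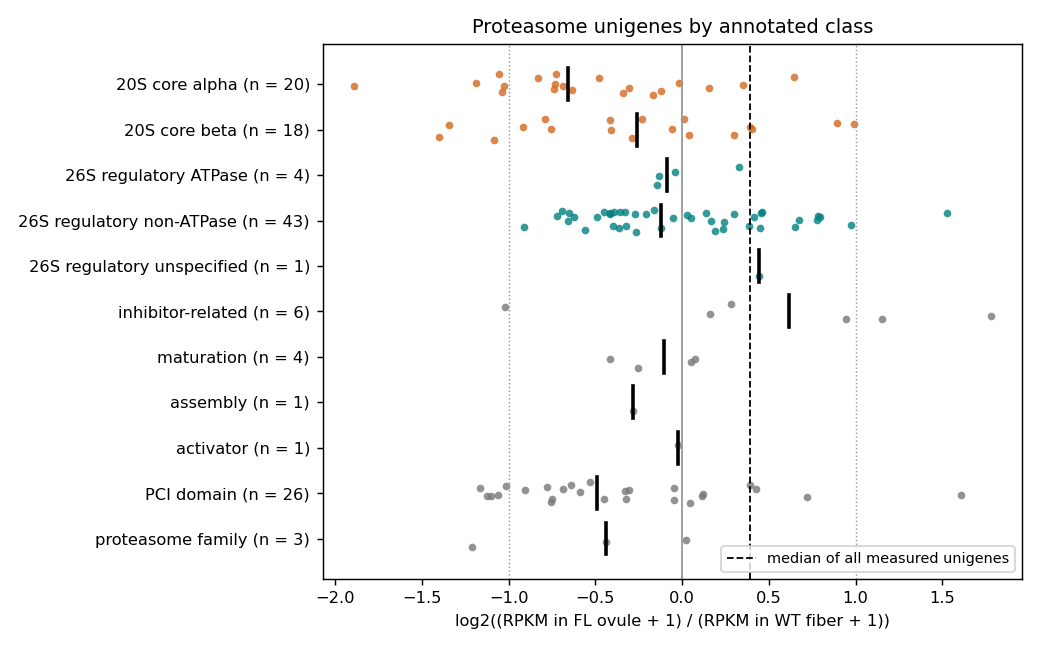
Each point is a measured unigene whose annotation contains the word proteasome, placed by its log2 ratio of FL ovule over WT fiber (horizontal axis, log2 of RPKM + 1) and its annotated class (rows). Short black bars are class medians, the dashed line is the median of all measured unigenes (0.39), and dotted lines mark 2-fold. The medians of the 20S core classes lie at -0.66 (alpha) and -0.26 (beta), while the 43 regulatory non-ATPase unigenes scatter on both sides of 0.

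The 20S core subunits were lower in FL ovule. Of 45 core unigenes, 38 were measured. Of these, 28 had a lower value in FL ovule and 10 a higher one, with a median log2 ratio of -0.41. Lower values were found for 33.2% of all measured unigenes. At least 2-fold lower values were found for 8 of the 38 (21.1%), and no measured core unigene was at least 2-fold higher. Of all measured unigenes, 10.5% were at least 2-fold lower and 15.3% higher. Among those with a mean of 20 to 100 RPKM, 29.5% were lower. The core counts depended on the scaling. With a common RPKM sum 18 were lower, and with totals that leave out the 30 most-read unigenes 3 were higher and 2 lower. The median of all measured unigenes was -0.23 under the former scaling and 0.69 under the latter. At 1.5-fold, 3 were higher and 17 lower, where all measured unigenes gave 38.3% higher and 17.7% lower. Summed over the measured core unigenes, RPKM was 856 in FL ovule, against 1344 in WT fiber, a ratio of 0.637. Their share of all reads had a ratio of 0.598 (95% counting interval 0.591 to 0.605).

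Both kinds of ring showed this. The 20 measured alpha unigenes summed to 533 RPKM in FL ovule, against 744 RPKM in WT fiber, a ratio of 0.717. The 18 measured beta unigenes summed to 323 RPKM in FL ovule, against 599 RPKM in WT fiber, a ratio of 0.539. By medians the order was the other way round, with -0.66 for alpha and -0.26 for beta, and 7 of the 18 beta unigenes, against 3 of the 20 alpha unigenes, had higher values in FL ovule. The annotation texts name 6 alpha positions (1, 3, 4, 5, 6 and 7) and 5 beta positions (3, 4, 5, 6 and 7). Texts that number subunits by type were placed by the usual correspondence, so that alpha type-6 is alpha 1 and beta type-1 is beta 6.

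The abundant alpha unigenes differed in direction. The alpha 3 unigene (Unigene0139851, alpha subunit C1, 1790 bases) had 61.2 RPKM in FL ovule, against 128 RPKM in WT fiber, a ratio of 0.476 (0.461 to 0.492). The leading alpha 5 unigene (Unigene0081307) had 18.1 RPKM in FL ovule, against 42.6 RPKM in WT fiber, a ratio of 0.426 (0.396 to 0.458). Both of these outer-ring unigenes were thus more than 2-fold less abundant in FL ovule. Summed over its 6 measured unigenes, alpha 5 had 55.2 RPKM in FL ovule and 98.3 RPKM in WT fiber, a ratio of 0.562. The leading alpha 1 unigene (Unigene0070664) had 41.2 RPKM in FL ovule and 68.9 RPKM in WT fiber, and the leading alpha 7 unigene (Unigene0075801) had 32.9 and 41.9 RPKM in the same order, which are smaller differences in the same direction. For alpha 1 and alpha 7 the 2-fold mark was passed by a less abundant unigene with the same text: Unigene0070665 (17.6 RPKM in FL ovule, 37.2 RPKM in WT fiber) and Unigene0075802 (6.36 and 13.97 RPKM).

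Alpha 4 and alpha 6 stood apart from this, with unigenes of 1 position going opposite ways. The alpha 4 unigene Unigene0053031 (alpha subunit D2) had 87.7 RPKM in FL ovule, against 55.6 RPKM in WT fiber, a ratio of 1.58 (1.504 to 1.65). The alpha 4 unigene Unigene0055243 (annotated PAD1 after its Arabidopsis counterpart) had 5.12 RPKM in FL ovule, against 21.7 RPKM in WT fiber, a ratio of 0.236 (0.207 to 0.268). It had the lowest ratio of all measured core unigenes, while Unigene0053031 had the highest ratio among core unigenes at 5 RPKM or more. Summed over the position, alpha 4 had 175 RPKM in FL ovule and 190 RPKM in WT fiber. Of both alpha 6 unigenes (alpha subunit F2), Unigene0090421 had 81.1 RPKM in FL ovule, against 63.5 RPKM in WT fiber, and Unigene0090419 had 24.8 RPKM in FL ovule, against 42.1 RPKM in WT fiber. Their sum was 106 RPKM in each library, so with RPKM as deposited the level of the position hides opposite differences of its unigenes. The higher values in FL ovule depended on the scaling. With a common RPKM sum, the log2 ratio was -0.27 for Unigene0090421 and 0.03 for Unigene0053031. With upper quartile scaling, the log2 ratio was -0.12 for Unigene0090421 and 0.18 for Unigene0053031. The counts are of uniquely mapped reads. How reads shared by near-identical copies affect such unigenes was not tested, which makes values of single unigenes uncertain.

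Among beta subunits the leading unigenes of beta 4 and beta 3 had the lowest ratios. The leading beta 4 unigene (Unigene0054770, beta subunit D1, 1356 bases) had 48.7 RPKM in FL ovule, against 130 RPKM in WT fiber, a ratio of 0.374 (0.360 to 0.390). The leading beta 3 unigene (Unigene0048282, beta subunit C1) had 50.4 RPKM in FL ovule, against 130 RPKM in WT fiber, a ratio of 0.389 (0.372 to 0.406). Neither position is among the catalytic ones. The leading beta 7 unigene (Unigene0077029) had 31.5 RPKM in FL ovule and 68.0 RPKM in WT fiber, a ratio of 0.463 (0.441 to 0.487). Beta 5, the subunit with the chymotrypsin-like site, was named by 1 unigene (Unigene0032644) with 16.7 RPKM in FL ovule and 29.6 RPKM in WT fiber. Beta 6 was measured by Unigene0053656, with 78.2 RPKM in FL ovule and 133 RPKM in WT fiber, a ratio of 0.589 (0.566 to 0.612). All 5 leading beta unigenes were therefore less abundant in FL ovule, by different amounts. The other measured beta unigenes were divided: over all 18, 11 had lower and 7 had higher values in FL ovule. Among the higher ones, the long beta 7 unigene Unigene0077030 had 5.02 RPKM in FL ovule and 3.55 RPKM in WT fiber, and a beta unigene with no number in its text (Unigene0134663) had 2.61 and 0.816 RPKM.

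The 8 core unigenes past 2-fold came from 8 of the 11 named positions, 1 from each. With RPKM as deposited, 9 of the 11 leading core unigenes were lower in FL ovule, and those of alpha 4 and alpha 6 were higher. Of the 8 core positions with several measured unigenes, 6 had unigenes on both sides of equal abundance. By position sums, 10 of 11 core positions were lower in FL ovule. By read share, the counting intervals of alpha 6 (1.002, 0.961 to 1.04) and alpha 4 (0.983, 0.952 to 1.016) contained a ratio of 1. The order of the sums also differed: alpha 4 was highest in both libraries (175 RPKM in FL ovule, 190 RPKM in WT fiber) and beta 5 lowest (16.7 and 29.6 RPKM), while beta 3 and beta 4 followed alpha 4 in WT fiber, with 168 and 157 RPKM, but had 85.4 and 76.3 RPKM in FL ovule, below the 106 RPKM of alpha 6. A sum counts a transcript more than once where it is split into several unigenes. Counts of uniquely mapped reads may also lack reads shared by similar unigenes. Levels of positions with many unigenes are therefore uncertain in both directions.

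**Figure D2:**
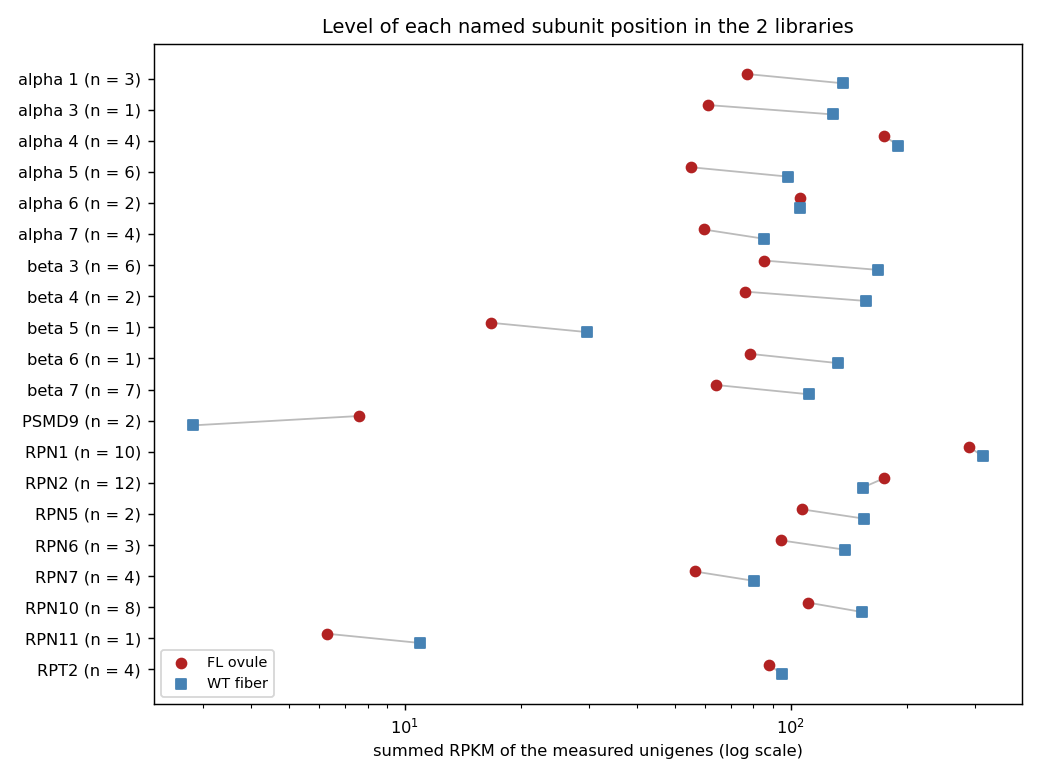
Summed RPKM of the measured unigenes of each named subunit position (rows, with the number of unigenes), in FL ovule (circles) and WT fiber (squares), on a logarithmic axis. Most core positions lie lower in FL ovule; alpha 6 is equal at 106 RPKM in both, and RPN2 and PSMD9 lie higher in FL ovule.

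The 26S regulatory subunits lay nearer to equal abundance than the core with RPKM as deposited, but not under every scaling: with totals that leave out the 30 most-read unigenes, the regulatory median was 0.25 and the core median -0.07. Of 76 regulatory unigenes, 48 were measured. Of these, 22 had a higher value in FL ovule and 26 a lower one, with a median log2 ratio of -0.09. Lower values were found for 33.2% of all measured unigenes. At 2-fold, 1 was higher in FL ovule and none of the 48 was lower, against a background of 15.3% and 10.5%; with a pseudocount of 0.1, 5 were higher and 1 lower. At 1.5-fold, 7 of the 48 were higher and 6 lower, where all measured unigenes gave 38.3% higher and 17.7% lower. Summed RPKM was 979 in FL ovule, against 1139 in WT fiber, a ratio of 0.859, and the read share had a ratio of 0.828 (0.819 to 0.837). Set beside the core, the summed ratio of the core was 0.742 times that of the regulatory particle. This quotient does not depend on how the libraries are scaled, apart from which unigenes pass the filter, because the scaling cancels. It has no replicate check.

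The regulatory class was made up mostly of non-ATPase subunits, and these fell into groups by position. With RPKM as deposited, RPN1 and RPN2, the large scaffold subunits of the base, were near equal or higher in FL ovule. The leading RPN1 unigene (Unigene0085726, regulatory subunit S2) was the most abundant member in both libraries, with 162 RPKM in FL ovule and 176 RPKM in WT fiber, a ratio of 0.920 (0.899 to 0.941). Its neighbour Unigene0085727 had 110 RPKM in FL ovule and 128 RPKM in WT fiber. The other 8 measured RPN1 unigenes were below 5 RPKM in both libraries and all had higher values in FL ovule, such as Unigene0079226 with 3.12 RPKM in FL ovule and 1.40 RPKM in WT fiber. Of all 46995 measured unigenes with a mean below 5 RPKM, 34786 had higher values in FL ovule.

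With RPKM as deposited, RPN2 was the abundant position that was higher in FL ovule. Its 12 unigenes summed to 175 RPKM in FL ovule, against 154 RPKM in WT fiber, and 9 of the 12 had higher values in FL ovule. Higher values were also common in the whole table, with 42227 of 63258 measured unigenes. The read share ratio of the position was 1.12 (1.09 to 1.16). Scaling to a common RPKM sum multiplies ratios of FL ovule over WT fiber by 0.648, and upper quartile scaling by 0.720. Under either scaling, the summed RPKM of the position would be lower in FL ovule. The largest differences were in short unigenes: Unigene0038516 (448 bases) had 19.2 RPKM in FL ovule, against 9.25 RPKM in WT fiber, a ratio of 2.07 (1.74 to 2.47), and Unigene0038955 (212 bases) had 19.6 and 10.9 RPKM. The longest one, Unigene0115782 (3156 bases), had 18.6 RPKM in FL ovule and 15.6 RPKM in WT fiber, a ratio of 1.19 (1.13 to 1.26). The leading RPN2 unigene by level, Unigene0059212, went the other way, with 25.8 RPKM in FL ovule and 33.5 RPKM in WT fiber. RPN2 unigenes were thus divided, and how many transcripts they stand for was not tested.

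The lid subunits named here were lower in FL ovule, by less than 2-fold on the log2 scale with the pseudocount. RPN5 (Unigene0077561), a PCI-domain subunit of the lid, had 88.4 RPKM in FL ovule, against 124 RPKM in WT fiber, a ratio of 0.710 (0.690 to 0.730). RPN6 (Unigene0137447), which in yeast clamps the lid to the core, had 60.1 RPKM in FL ovule and 93.2 RPKM in WT fiber, a ratio of 0.644 (0.622 to 0.667). RPN7 (Unigene0089458) had 37.7 and 50.6 RPKM in the same order, a ratio of 0.746 (0.712 to 0.782). The second RPN5 unigene (Unigene0077562) had 18.4 RPKM in FL ovule and 30.3 RPKM in WT fiber. All 9 measured unigenes of RPN5, RPN6 and RPN7 had lower values in FL ovule. The lowest regulatory ratio was that of the minor RPN7 unigene Unigene0089459, with 4.42 RPKM in FL ovule and 9.21 RPKM in WT fiber, a ratio of 0.480 (0.413 to 0.556) before the pseudocount. RPN11, the deubiquitinase of the lid, was named by 1 unigene of 308 bases (Unigene0011112) with 6.26 RPKM in FL ovule and 10.96 RPKM in WT fiber, on 103 and 154 reads.

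RPN10, a receptor for ubiquitin chains, had 15 unigenes, of which 8 were measured. Of these, 7 had lower values in FL ovule, and the leading one (Unigene0069802) had 42.5 RPKM in FL ovule and 54.9 RPKM in WT fiber, a ratio of 0.775 (0.737 to 0.815). The 4 RPN8 members did not reach 1 RPKM in either library, but RPN8 was present under a text without the word proteasome: Unigene0058854 (RP non-ATPase subunit 8A) had 99.1 RPKM in FL ovule and 127 RPKM in WT fiber. The ATPase RPT2 was near equal: its leading unigene (Unigene0087177) had 45.4 RPKM in FL ovule and 50.4 RPKM in WT fiber, and its 4 unigenes summed to 87.7 RPKM in FL ovule and 95.02 RPKM in WT fiber. The regulatory unigene past 2-fold on the log2 scale with the pseudocount was annotated as subunit 9 (PSMD9), which in yeast and mammals is a chaperone for assembly of the base and not a part of the finished particle. This unigene (Unigene0076677, 261 bases) had 5.02 RPKM in FL ovule, against 1.09 RPKM in WT fiber, on 70 and 13 reads, a ratio of 4.60 (2.52 to 9.07). Without RPN1 and RPN2, a choice made after seeing the values, the regulatory median was -0.38 and the summed ratio 0.765, nearer to the -0.41 and 0.637 of the core.

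The ratio went with abundance, among the members and among all unigenes. Across the 38 core unigenes the log2 ratio had a Pearson r of -0.55 and a Spearman rho of -0.54 with log2 mean RPKM. The values were -0.46 and -0.48 across the 48 regulatory unigenes and -0.28 for both measures across all measured unigenes. The ratio and the mean come from the same libraries, and unigenes of 1 gene are not independent. At a mean of 20 to 100 RPKM, the 4322 unigenes of the whole table had a median of -0.46 and 29.5% were at least 2-fold lower in FL ovule. In that range the 17 core unigenes had a median of -0.74, with 6 at least 2-fold lower, and the 11 regulatory unigenes had a median of -0.36, with none of the 11 past 2-fold. At 5 to 20 RPKM the 9 core unigenes had a median of -0.41, the 18 regulatory unigenes -0.21 and all 11067 unigenes 0.05; 2 of the 9 core unigenes and none of the 18 regulatory ones were at least 2-fold lower, against 16.7% of all unigenes. Below 5 RPKM the 11 core unigenes had a median of 0.01, the 16 regulatory unigenes 0.36 and all 46995 unigenes 0.49; no core or regulatory unigene there was at least 2-fold lower, against 6.7% of all. In each of these 3 ranges the core median was the lowest. Above 100 RPKM the 1 core unigene was at -0.76, the 3 regulatory unigenes had a median of -0.21 and all 874 unigenes -0.81, so there the core was not below the background. Part of the distance between the core and all measured unigenes goes with the abundance of core unigenes.

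**Figure D3:**
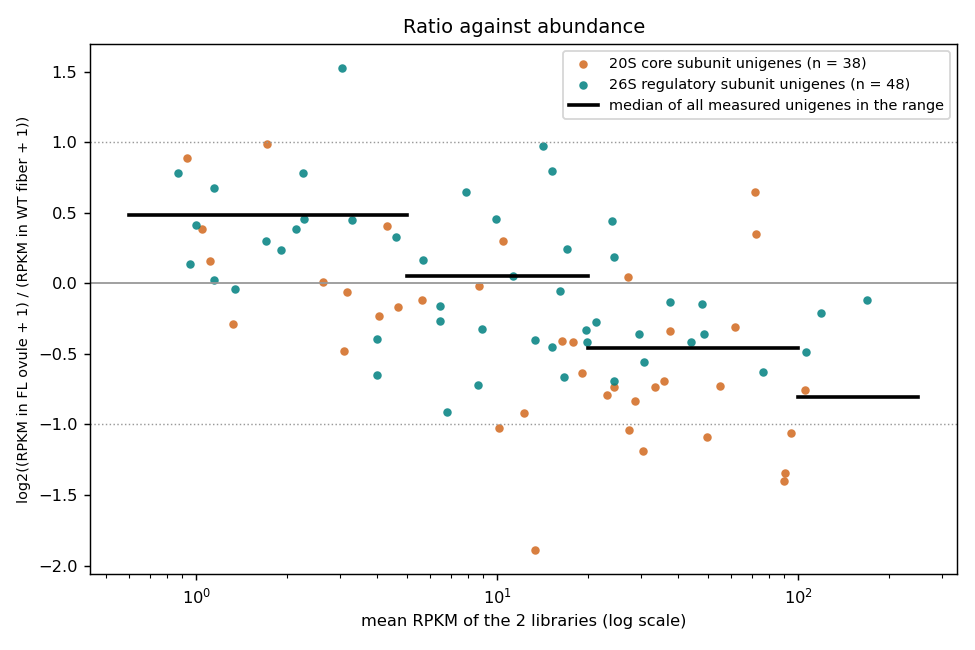
Log2 ratio of FL ovule over WT fiber (vertical axis) against the mean RPKM of both libraries (horizontal axis, log scale) for the 38 core and 48 regulatory unigenes measured. Black lines are medians of all measured unigenes within 0 to 5, 5 to 20, 20 to 100 and above 100 RPKM, which step down from 0.49 to -0.81; most core points above 20 RPKM lie below them.

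Accessory proteins were divided. Proteasome activator PA200 (Unigene0110932, 6339 bases), an alternative cap of the core, had 20.2 RPKM in FL ovule and 20.6 RPKM in WT fiber, a ratio of 0.981 (0.947 to 1.02). Assembly chaperone 3 (Unigene0053360), which helps to build the alpha ring, had 22.6 RPKM in FL ovule and 27.7 RPKM in WT fiber, a ratio of 0.814 (0.751 to 0.882). With RPKM as deposited, both were closer to equal than the core as a whole. With totals that leave out the 30 most-read unigenes this did not hold for PA200, with a log2 ratio of 0.32 against a core median of -0.07. Assembly chaperone 3 was at 0.06 under that scaling. UMP1, a maturation factor enclosed in the assembling core, was represented by 5 unigenes, of which the 4 measured ones had 243 to 392 bases. These summed to 13.7 RPKM in FL ovule and 14.7 RPKM in WT fiber, and the counting interval of each of the 4 (Unigene0080995, Unigene0080997, Unigene0080999 and Unigene0098442) contained a ratio of 1.

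Unigenes annotated as proteasome inhibitor-related lay on both sides of equal abundance, with log2 ratios from -1.02 to 1.78. Unigene0070852 had 6.98 RPKM in FL ovule, against 1.32 RPKM in WT fiber, a ratio of 5.27 (4.05 to 6.94), the highest of the 127 measured members on the log2 scale. Unigene0049160 had 10.0 RPKM in FL ovule, against 3.95 RPKM in WT fiber, a ratio of 2.53 (2.13 to 3.03). Unigene0074761 had 14.8 RPKM in FL ovule, against 31.2 RPKM in WT fiber, a ratio of 0.476 (0.440 to 0.514). The text is shared, but these unigenes lie on opposite sides; Unigene0074761 is also the only inhibitor-related unigene placed in the KEGG proteasome pathway by the deposited pathway field. The other 3 measured ones were higher in FL ovule by less than 2-fold on the log2 scale: Unigene0091892 (3.10 RPKM in FL ovule, 1.13 RPKM in WT fiber), Unigene0044140 (2.83 and 2.15 RPKM) and Unigene0052241 (18.7 and 16.5 RPKM). Their summed RPKM was 56.4 in FL ovule and 56.3 in WT fiber.

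Members with a text that names no subunit had 35 unigenes of PCI-domain proteins and 8 called proteasome family protein. The PCI domain occurs in lid subunits but also in the COP9 signalosome and in a translation initiation factor, so these texts do not place a unigene in the proteasome. The deposited pathway field placed 8 of the 35 in the KEGG proteasome pathway. These 8 had a median log2 ratio of 0.12 and summed to 98.3 RPKM in FL ovule and 92.3 RPKM in WT fiber. Of the other 27, 18 were measured, with a median of -0.66 and sums of 121 RPKM in FL ovule and 218 RPKM in WT fiber. Of the 29 measured unigenes without a subunit name, 6 were at least 2-fold lower in FL ovule (20.7%) and 1 was higher (3.45%). Among all measured unigenes these shares were 10.5% and 15.3%.

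The KEGG field was independent of the membership rule and tells which subunits the word proteasome missed. It was set for all 45 core members, 72 of 76 regulatory members and 132 of the 182 members in all, and for 52 unigenes outside them. Those 52, looked at after the members' values had been seen, include most ATPases, which carry texts such as regulatory particle triple-A ATPase. Of the 52, 48 were measured: 10 had a higher value in FL ovule and 38 a lower one, with a median of -0.48. At 2-fold, 1 was higher (2.08%) and 5 were lower (10.4%), against 15.3% and 10.5% of all measured unigenes.

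The ATPases outside the members had a lower ratio of FL ovule over WT fiber than the RPT2 members, apart from RPT2 texts outside them (24.1 RPKM in FL ovule, 25.8 RPKM in WT fiber). The 17 measured unigenes named RPT1, RPT2, RPT3, RPT5 and RPT6 summed to 488 RPKM in FL ovule, against 730 RPKM in WT fiber, a ratio of 0.668 that is close to the 0.637 of the core members. RPT5 summed to 76.9 RPKM in FL ovule, against 151 RPKM in WT fiber, and RPT1 to 124 RPKM in FL ovule, against 217 RPKM in WT fiber. RPT3 (155 and 211 RPKM) and RPT6 (108 and 124 RPKM) differed less, in the same direction. The 9 unigenes called N-terminal nucleophile hydrolases, the superfamily of the core subunits, all had lower values in FL ovule and summed to 282 RPKM in FL ovule and 443 RPKM in WT fiber, a ratio of 0.637. DSS1, the small lid subunit, had 4 unigenes, all with lower values in FL ovule, with sums of 167 and 288 RPKM. Mov34/MPN/PAD-1 texts summed to 109 RPKM in FL ovule and 148 RPKM in WT fiber, and the RPN12 text had 72.6 and 105 RPKM. Other groups were not lower. PAM domain texts, with 3 of 4 measured unigenes higher in FL ovule, summed to 73.6 RPKM in FL ovule and 73.2 RPKM in WT fiber. The 2 other texts (EMB2107 and HEAT repeat), both higher in FL ovule, summed to 17.3 and 7.47 RPKM. The contrast between core and regulatory members therefore holds for the texts with the word proteasome, mainly RPN subunits, and the ATPases outside them lay nearer the core. Over all 146 measured unigenes with the KEGG tag, summed RPKM was 3439 in FL ovule and 4783 in WT fiber, a ratio of 0.719.

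**Figure D4:**
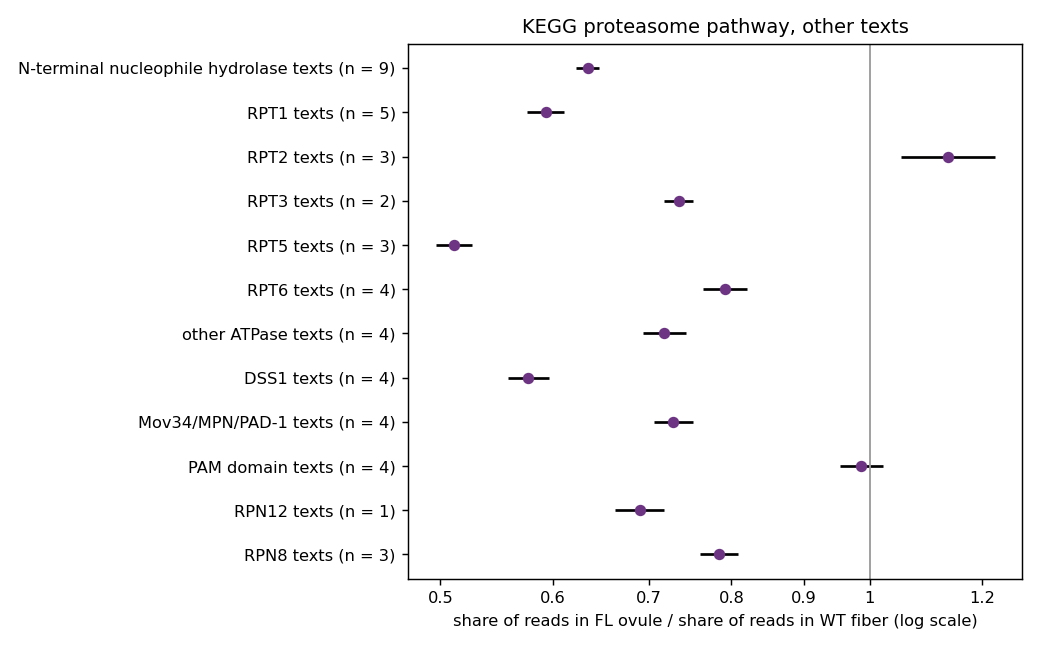
Share of all reads in FL ovule divided by the share in WT fiber (log axis) for groups of unigenes that the KEGG proteasome pathway holds but whose text lacks the word proteasome; points are ratios over the summed reads, bars exact 95% counting intervals, n the number of measured unigenes. RPT1 and RPT5 lie at 0.593 and 0.511. RPT2 lies above 1 by read share (1.13), while its summed RPKM ratio was 0.934. The group of 2 other texts (2.28, 1.92 to 2.72) is not drawn.

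The steps around the proteasome were read from the same tables by annotation text. Ubiquitin and polyubiquitin, the tag itself, had 44 measured unigenes with a median of -0.45. Of these, 9 were at least 2-fold lower in FL ovule (20.5%) and none of the 44 was at least 2-fold higher. Ubiquitin-activating enzymes (E1) had a median of -0.14 over 21 unigenes, with 1 at least 2-fold lower. Ubiquitin-conjugating enzymes (E2) had a median of -0.48 over 88 unigenes, with 10 past 2-fold upward in FL ovule (11.4%) and 20 downward (22.7%). Their summed RPKM was 2192 in FL ovule, against 3351 in WT fiber. The ligases that choose substrates were tallied by kind. F-box proteins, the substrate receptors of SCF ligases, had a median of 0.29 over 377 unigenes, with 64 past 2-fold upward in FL ovule (17.0%) and 36 downward (9.55%), near the background of 15.3% and 10.5%. RING and U-box ligases had a median of 0.00 over 688 unigenes, with 61 higher (8.87%) and 89 lower (12.9%), and cullins -0.01 over 34, with 1 higher and 3 lower.

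Factors that hand substrates on had medians between those of the core and the regulatory members. Shuttle proteins such as RAD23 had a median of -0.21 over 13 unigenes with none past 2-fold, and CDC48 with its cofactors UFD1 and NPL4 had a median of -0.25 over 25, with 2 at least 2-fold lower. The COP9 signalosome, a complex built like the lid, had a median of -0.44 over 17 unigenes. Of these, 4 were at least 2-fold higher (23.5%) and 2 lower (11.8%), against 15.3% and 10.5% of all measured unigenes. Deubiquitinases had a median of 0.09 over 136 unigenes, with 9 higher and 6 lower. SKP1 proteins had a median of -0.30 over 6 unigenes, and the 2 unigenes named 26S protease regulatory subunit had a median of -1.02. Autophagy genes, of the other main degradation route, had a median of -0.03 over 56 unigenes, with 2 higher and 1 lower. Among other abundant housekeeping families, cytosolic ribosomal proteins had a median of -0.34 over 485 unigenes and a summed ratio of 0.630, and heat shock proteins -0.43 over 103 and 0.601. These are near the values of the 20S core, so the core is not set apart from them by these data.

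The core median stayed negative and its summed ratio below equal abundance under each scaling, but both changed in size. The 2-fold counts of the core did turn, to 3 higher and 2 lower with totals that leave out the 30 most-read unigenes. The 30 most-read unigenes held 38.5% of the reads in FL ovule, against 21.1% in WT fiber, and RPKM shares the read total with them. With library totals that leave these unigenes out, the core median was -0.07 and its summed ratio 0.819, the regulatory median was 0.25 and its summed ratio 1.10, and the median of all measured unigenes was 0.69. Regulatory subunits thus lay above equal abundance under that scaling and below it with RPKM as deposited; with median ratio scaling their median was 0.04 and their summed ratio 0.948. With RPKM rescaled to a common sum, the core summed ratio was 0.413 and the regulatory one 0.556. The difference between the medians, core minus regulatory, ranged from -0.47 to -0.25 over the 12 settings shown. Leaving out RPN1 and RPN2, which is not among these settings, brought the regulatory median to -0.38, close to the -0.41 of the core.

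**Figure D5:**
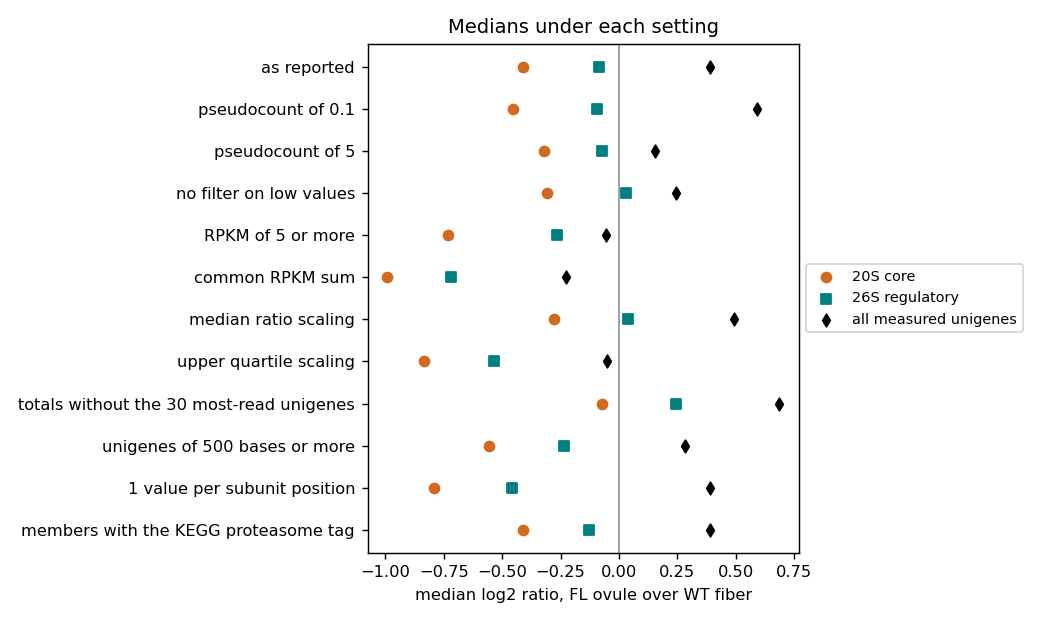
Median log2 ratio of FL ovule over WT fiber (horizontal axis) for 20S core unigenes (circles), 26S regulatory unigenes (squares) and all measured unigenes (diamonds) under each of 12 settings (rows). The core median lies left of the regulatory median in each row, by 0.25 to 0.47.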

How the data were processed

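Each deposited table lists unigenes with length, number of unique reads, RPKM and annotation. The deposited counts are whole numbers of uniquely mapped reads, as the file headers name them, and sum to each header's total. The deposited RPKM values were made by the authors from these counts, lengths and totals; recomputing them gave a largest relative error of 2.42e-14. Per the labels' protocols, RNA was divided into an oligo-dT and an rRNA-depleted part; which one the values come from is not stated. The submitters' processing notes name Bowtie and Bowtie2. The sources used here do not state the assembler, annotation database, build or strand setting. None of the unigene identifiers is in the reference gene table (0 of 136262), so no position or sequence is given.

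Tables were joined by identifier, with an absent unigene taken as 0 reads; 4 members had no read in FL ovule and 7 none in WT fiber, none of them measured. The joining, ratios and intervals were computed with Python 3.11.15, pandas 2.3.3, numpy 2.4.6 and SciPy 1.17.1, and tested on simulated data. Without molecular identifiers, reads can be copies of 1 molecule, so intervals cover counting error only. One read on 1 kb is 0.0187 RPKM in FL ovule and 0.0219 RPKM in WT fiber. Classes and lists came from patterns over annotation texts, written after the texts and values had been seen; the KEGG groups and abundance ranges were also chosen then. Named unigenes were the one with the highest mean RPKM of each position, the 3 with the largest ratio each way per particle at 5 RPKM or more, and all measured accessory ones; Unigene0070665, Unigene0075802, Unigene0085727, Unigene0058854, Unigene0079226, Unigene0090419, Unigene0115782 and Unigene0134663 were added after seeing their values. Members and lists were chosen with earlier results of these data known. Alternatives changed pseudocount, filter, fold, scaling, length and the unit counted.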

Additional observations from a re-analysis of the deposited data

How the results depend on the processing

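No test was possible with 1 library per group, and no paired analysis was possible because each group has 1 sample. The core median stayed below 0 and below the regulatory median under the alternatives tried, by 0.25 to 0.47 except without RPN1 and RPN2, while counts past 2-fold depended on the setting. With a pseudocount of 0.1, 2 core unigenes passed 2-fold upward in FL ovule, and 5 regulatory ones were higher and 1 lower; with a pseudocount of 5, 5 core unigenes were lower and 0 regulatory ones higher. At 1.5-fold, 3 core unigenes were higher and 17 lower, and 7 regulatory ones higher and 6 lower. All measured unigenes gave 38.3% higher and 17.7% lower at that threshold. At 5 RPKM or more the core median was -0.73. With a common RPKM sum, 18 core unigenes were lower (median -0.99, summed ratio 0.413) and 11 regulatory ones (-0.72, 0.556). With upper quartile scaling, 17 core unigenes were lower (-0.83, 0.459) and 7 regulatory ones (-0.54, 0.618). With median ratio scaling, 1 core unigene was higher and 4 lower (summed ratio 0.704), and 2 regulatory ones were higher (0.948, with a median of 0.04). After removing the 30 most-read unigenes from the totals, 3 core unigenes were higher and 2 lower (-0.071, 0.819), and 7 regulatory ones were higher (0.25, 1.10). Under these scalings, in the order given, the median of all measured unigenes was -0.23, -0.05, 0.49 and 0.69. The shares of all measured unigenes past 2-fold were not tallied for them, so these counts have no background beside them. With unigenes of 500 bases or more the summed ratios were 0.621 and 0.825, with 0 regulatory unigenes higher. With 1 value per subunit position, 2 core positions were lower, and the medians were -0.79 for the core and -0.46 for the regulatory particle. Without a filter on low values the regulatory median was 0.03. Among alternatives chosen after seeing the data, members with the KEGG tag gave 0 regulatory unigenes higher, and leaving out RPN1 and RPN2 gave a regulatory median of -0.38 and a summed ratio of 0.765. Depth limits the short or rare unigenes: PSMD9 rests on 70 and 13 reads.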
